A study of Mus musculus with 18 samples.

Results

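The genes followed here mark the granule neurons of the dentate gyrus: Prox1, C1ql2, C1ql3, Stxbp6, Plk5, Dsp, Tdo2, Lct and Calb1. They were chosen by symbol, and all 9 were found among the 55385 gene rows of the RNA tables. These genes and the 18 lists set beside them were chosen with earlier results of these data known. The tissue was hippocampus of C57BL/6 mice, either wild type (WT) or with a conditional knockout (cKO) of Arid1a, whose protein is the DNA-contacting ARID subunit of BAF, a complex that remodels chromatin. RNA came from 2 WT and 2 cKO samples at postnatal day 21 (P21) and from 3 WT and 3 cKO samples at embryonic day 16.5 (E16.5). Chromatin immunoprecipitation was done at 3 weeks with 1 library per genotype for each of H3K4me3, H3K27ac and H3K27me3 and for input. The labels name neither the Cre driver nor the cells in which Arid1a was deleted, no other allele or treatment is named for any group, and whether animals were pooled is not stated there. The question these groups pose is how loss of Arid1a bears on the RNA and the histone marks of the hippocampus.

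Granule neurons are the principal cells of the dentate gyrus, and their mossy fibre axons contact CA3 pyramidal neurons. Most of them are born around and after birth, so an E16.5 hippocampus holds mainly their progenitors and early neurons. Prox1, a homeodomain transcription factor, is required for granule neurons to acquire and keep their identity. H3K4me3 marks active promoters, H3K27ac marks active promoters and enhancers, and H3K27me3 is the mark of Polycomb repression, often found at promoters rich in CG dinucleotides.

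The stretches upstream of the starts are shown first because they part the genes shown as the peaks described further down do. This holds for H3K27me3 in cKO and for H3K4me3 in both genotypes. The parting by CG dinucleotides was drawn after the peaks were seen. Stxbp6 and another Prox1 start, with 12 and 11 CG dinucleotides, lie between the groups shown and are not printed. Each run is the 250 bases before a RefSeq start on GRCm38.p6, 5′ to 3′ on the gene's own strand, with every CG dinucleotide in capitals.
Prox1, chr1:190170828-190171077, reverse strand: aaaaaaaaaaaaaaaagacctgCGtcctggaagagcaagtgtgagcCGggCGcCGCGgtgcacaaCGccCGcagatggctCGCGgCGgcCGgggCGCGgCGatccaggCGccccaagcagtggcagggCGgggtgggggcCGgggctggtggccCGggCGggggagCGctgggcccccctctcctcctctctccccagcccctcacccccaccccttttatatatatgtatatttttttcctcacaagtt
C1ql2, chr1:120340332-120340581, forward strand: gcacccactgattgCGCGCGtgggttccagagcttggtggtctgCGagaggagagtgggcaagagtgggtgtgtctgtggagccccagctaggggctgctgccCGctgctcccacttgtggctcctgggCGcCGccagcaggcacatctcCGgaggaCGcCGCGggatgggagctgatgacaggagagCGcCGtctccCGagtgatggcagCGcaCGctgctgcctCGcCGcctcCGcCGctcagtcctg
C1ql3, chr2:13010865-13011114, reverse strand: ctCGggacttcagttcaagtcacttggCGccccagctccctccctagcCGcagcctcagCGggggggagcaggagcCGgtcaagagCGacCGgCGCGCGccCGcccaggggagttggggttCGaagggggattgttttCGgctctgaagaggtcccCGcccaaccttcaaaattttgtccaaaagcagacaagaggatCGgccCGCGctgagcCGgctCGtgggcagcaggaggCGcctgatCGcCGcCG
Plk5, chr10:80356209-80356458, forward strand: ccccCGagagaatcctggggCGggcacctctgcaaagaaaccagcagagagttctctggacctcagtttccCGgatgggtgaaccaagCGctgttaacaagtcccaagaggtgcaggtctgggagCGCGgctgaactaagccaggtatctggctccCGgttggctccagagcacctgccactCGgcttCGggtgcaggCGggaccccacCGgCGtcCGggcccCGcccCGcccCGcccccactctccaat
Dsp, chr13:38151044-38151293, forward strand: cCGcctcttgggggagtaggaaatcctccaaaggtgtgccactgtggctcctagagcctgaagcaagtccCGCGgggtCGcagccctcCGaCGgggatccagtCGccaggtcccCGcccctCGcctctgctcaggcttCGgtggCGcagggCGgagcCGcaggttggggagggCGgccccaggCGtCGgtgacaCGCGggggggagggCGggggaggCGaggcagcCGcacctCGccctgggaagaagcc
Tdo2, chr3:81975729-81975978, reverse strand: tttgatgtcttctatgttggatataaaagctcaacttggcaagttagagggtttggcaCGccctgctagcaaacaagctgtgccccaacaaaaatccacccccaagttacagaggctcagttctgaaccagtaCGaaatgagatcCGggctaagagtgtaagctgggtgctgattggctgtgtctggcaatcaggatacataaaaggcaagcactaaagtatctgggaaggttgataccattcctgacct
Lct, chr1:128328319-128328568, reverse strand: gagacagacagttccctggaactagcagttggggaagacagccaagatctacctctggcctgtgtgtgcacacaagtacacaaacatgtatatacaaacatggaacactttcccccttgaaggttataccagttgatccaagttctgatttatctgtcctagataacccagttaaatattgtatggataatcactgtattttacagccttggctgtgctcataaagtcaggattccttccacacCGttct

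The upstream stretches of Prox1, C1ql2, C1ql3, Plk5 and Dsp held 20, 20, 23, 16 and 22 CG dinucleotides, and those of Tdo2 and Lct held 3 and 1. The median over 32851 mouse promoters of this length was 6, with quartiles of 2 and 16. Stxbp6, whose listed start lies inside the annotated gene and whose stretch is therefore not printed, held 12. Prox1 has another listed start, at position 190169515, whose upstream stretch held 11. Calb1 has no entry in the promoter table used here. Of the short motifs searched on both strands, the E-box CAGATG matched once upstream of the first Prox1 start and in 14.4% of all promoters. TATAAA matched upstream of Prox1, on the reverse strand, and of Tdo2, against 12.4% of all promoters. No stretch of these 8 genes matched the other E-box searched, CAGCTG, which occurred in 13.0% of promoters. The same held for the TCF/LEF motif CTTTGAT (3.21%), the AP-1 motif TGANTCA (6.75%) and the CRE motif TGACGTCA (1.55%). The second E-box and the CRE read the same on both strands, and overlapping motifs were counted separately.

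Arid1a itself separated the genotypes at both ages. With levels given as CPM, the estimated counts relative to each TMM-scaled library, it stood at 215 and 205 in WT and at 110 and 89.2 in cKO at P21. At E16.5 it stood at 262, 282 and 285 CPM in WT and at 180, 175 and 176 CPM in cKO. The total of estimated counts lay between 20089631 and 20332148 per library at P21, and between 17662335 and 19760764 at E16.5. Several libraries stood apart. At E16.5 the summed level of 6 choroid plexus markers was 4860, 3250 and 22.7 CPM in WT replicates 1 to 3 and 2.69, 31.6 and 2500 CPM in cKO replicates 1 to 3, and cKO replicate 1 also had the highest sum of 7 CA1 pyramidal markers, 2520 CPM against 528 to 1140 CPM in the other 5 libraries. At P21, cKO replicate 1 had a choroid plexus sum of 3600 CPM against 1030 to 1410 CPM in the other 3. Xist, an RNA made in females, was nearly absent from replicate 1 and abundant in replicate 2 of both genotypes at P21 (37 and 21 counts against 4914 and 3572), so there the replicate number also follows sex.

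At P21, 7 of the 9 genes were lower in cKO and 0 were higher by edgeR's quasi-likelihood F test, at a Benjamini-Hochberg adjusted p under 0.05 over 17407 genes. Of all genes tested, 3.91% were lower and 2.81% higher. The median log2 change of the 9 genes was -1.55, and that of all genes 0.01. All 9 passed the filter on low counts. In 7 of the 9 genes each cKO library lay below each WT library, as it did for 27.9% of all genes tested. They are the 7 genes called lower, for which such a split follows almost from the call. The summed level of the 9 genes was 602 and 638 CPM in WT and 322 and 309 CPM in cKO. These are bulk samples, in which fewer granule neurons and less RNA per granule neuron cannot be told apart.

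Prox1 (chromosome 1, 190118035 to 190170827, GRCm38) had 139 and 146 CPM in WT and 50.1 and 28.5 CPM in cKO at P21. The groups were far apart, and the cKO libraries differed more from each other than the WT libraries did. The mean fell from 142.4 ± 4.90 (SD, n = 2) to 39.3 ± 15.3 CPM (SD, n = 2), which is 27.6% of WT (log2 change -1.86, SE 0.28, edgeR adjusted p = 0.0315).

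The RNAs of the secreted C1q-like proteins that mossy fibres place at their synapses both fell, by different amounts. C1ql2 (chromosome 1, 120340582 to 120343174) had 27.6 and 23.9 CPM in WT and 5.78 and 5.92 CPM in cKO. Its cKO libraries were nearly equal. The mean fell to 22.7% of WT (log2 change -2.14, SE 0.15, edgeR adjusted p = 0.00101). C1ql3 (chromosome 2, 13001887 to 13010864) had 81.6 and 83.2 CPM in WT and 56.4 and 50.5 CPM in cKO. It fell least of the 7, to 64.9% of WT (log2 change -0.62, SE 0.11, edgeR adjusted p = 0.0181). The 95% interval of C1ql2, -2.49 to -1.78, and that of C1ql3, -0.87 to -0.38, do not meet, though the difference between the genes was not tested.

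Stxbp6 and Plk5 fell to similar shares of their WT levels. Stxbp6 (chromosome 12, 44852484 to 45075118), known as amisyn, carries a SNARE motif and binds the exocytosis machinery. It had 99.6 and 105 CPM in WT and 38.9 and 26.8 CPM in cKO, a fall to 32.1% of WT (log2 change -1.64, SE 0.18, edgeR adjusted p = 0.00507). Plk5 (chromosome 10, 80356459 to 80365489), a brain-expressed member of the polo-like kinase family, had 12.4 and 11.6 CPM in WT and 4.63 and 3.56 CPM in cKO. It fell to 34.1% of WT (log2 change -1.55, SE 0.20, edgeR adjusted p = 0.00745).

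Dsp and Lct fell as well. Dsp (chromosome 13, 38151294 to 38198577) encodes desmoplakin, which ties desmosomes to intermediate filaments and in the hippocampus marks granule neurons. It had 66.6 and 86.2 CPM in WT and 25.4 and 14.8 CPM in cKO, a fall to 26.3% of WT (log2 change -1.92, SE 0.30, edgeR adjusted p = 0.0353). Lct (chromosome 1, 128284756 to 128328318) encodes lactase, best known from the intestine. It had 52.9 and 53.6 CPM in WT and 29.9 and 19.1 CPM in cKO, a fall to 46.0% of WT (log2 change -1.12, SE 0.21, edgeR adjusted p = 0.0301).

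Tdo2 and Calb1 did not pass the test at P21, and in both the cKO libraries lay on either side of the WT libraries. Tdo2 (chromosome 3, 81958412 to 81975728), the tryptophan dioxygenase that opens the kynurenine pathway, had 5.81 and 5.37 CPM in WT and 6.36 and 2.76 CPM in cKO (log2 change -0.29, 95% interval -1.18 to 0.60, edgeR adjusted p = 0.685). Calb1 (chromosome 4, 15881264 to 15906709) encodes calbindin, a calcium buffer of mature granule neurons that CA1 pyramidal, striatal and some inhibitory neurons also make. It had 116 and 123 CPM in WT and 105 and 157 CPM in cKO (log2 change 0.13, 95% interval -0.33 to 0.59, edgeR adjusted p = 0.72). The cKO library with 157 CPM also had the higher sum of CA1 markers, 1240 against 799 CPM, and of 8 striatal markers, 289 against 210 CPM. Their part in the Calb1 level was not tested.

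**Figure D1:**
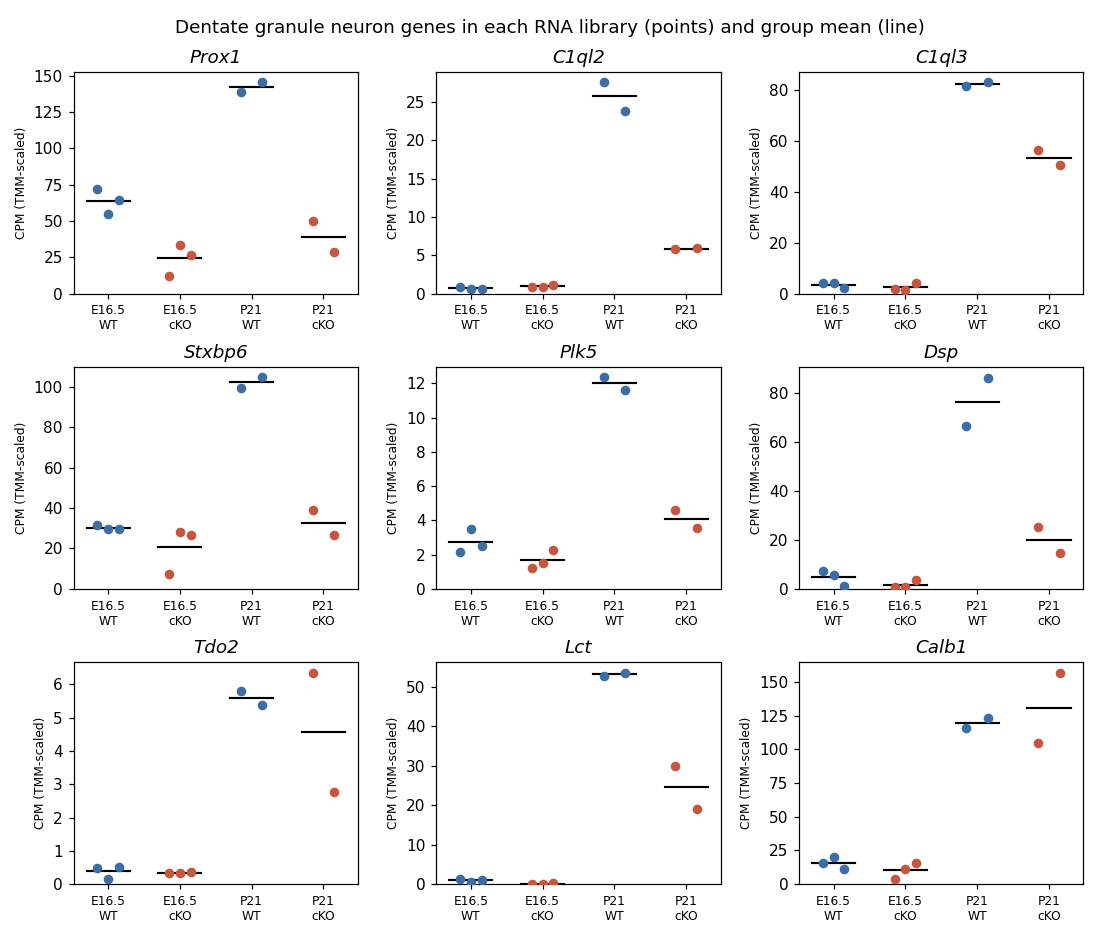
CPM of the 9 genes (vertical axes, linear, each from 0) in every RNA library, by age and genotype (blue WT, red cKO), with the group mean as a line. At P21 both cKO points lie below both WT points in all panels but Tdo2 and Calb1. For Prox1, Stxbp6 and Lct the cKO points also lie below the WT points at E16.5, though all E16.5 points of Lct are close to the axis.

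The 2 cKO libraries at P21 differed in a common direction. Replicate 2 was the lower in Prox1, C1ql3, Stxbp6, Plk5, Dsp, Tdo2 and Lct, nearly equal in C1ql2, and the higher in Calb1. Replicate 2 had fewer Arid1a counts, 1778 against 2281, and was the one with high Xist; neither was tested as a source of the difference. Without cKO replicate 1 the log2 change of Tdo2 was -1.02 and that of Calb1 0.40 (edgeR adjusted p = 0.0275 and 0.0287), and without cKO replicate 2 they were 0.18 and -0.19. Each such refit leaves 1 library in an arm, which is assumed to vary like the pair of the other genotype. The 7 falls kept their direction in every refit, but the number past the threshold was lower when a WT library was left out: without WT replicate 1, C1ql2, C1ql3, Stxbp6 and Plk5 passed, and without WT replicate 2, C1ql2, Stxbp6 and Plk5. A fit of all 10 libraries, in which both ages share the estimate of spread, called C1ql2 and Plk5. DESeq2 called the same 7 genes lower (5.45% of genes), and in the authors' deposited table these 7 had adjusted p-values between 1.45e-17 and 0.000271 (2.65% of its genes were lower).

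At E16.5, 0 of the 8 genes that could be tested passed edgeR's test, in a comparison in which 0.112% of 16958 genes were lower and 0.0118% higher. Lct passed the filter on low counts through its WT libraries alone, which fixed the direction of its change, so it is left out of the next counts. Of the other 7, 1, Prox1, was lower at an unadjusted p under 0.05, against 11.5% of all genes. DESeq2 called 1, Prox1, lower, with 4.50% of its genes lower. In 2 of the 7, Prox1 and Stxbp6, each cKO library lay below each WT library, as for 15.3% of all genes tested.

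Prox1 was measured at 71.9, 55.1 and 64.4 CPM in WT and 12.5, 33.6 and 26.6 CPM in cKO at E16.5. The groups did not overlap, and cKO replicate 1 was the lowest. The means were 63.8 ± 8.39 (SD, n = 3) and 24.2 ± 10.8 CPM (SD, n = 3). The log2 change was -1.40 (SE 0.35), with an edgeR adjusted p of 0.154 and a DESeq2 adjusted p of 0.00102. In the authors' deposited table the log2 change was -1.38 with an adjusted p of 0.00102, and 2.14% of its genes were lower. Without cKO replicate 1 the log2 change was -1.06 (edgeR adjusted p = 0.109).

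The other genes were low or uneven at this age. The counts of Lct were 23, 11 and 19 in WT against 1, 0 and 4 in cKO (log2 change -3.27, SE 0.78, edgeR adjusted p = 0.147). Stxbp6 had 31.4, 29.7 and 29.9 CPM in WT and 7.57, 28.3 and 26.8 CPM in cKO. Only cKO replicate 1 was far from WT, and the log2 change of -0.54 (edgeR adjusted p = 0.524) was -0.12 without it. Calb1 had 15.8, 20 and 11 CPM in WT and 4.04, 11.4 and 15.7 CPM in cKO, with overlapping groups. Its log2 change of -0.59 (edgeR adjusted p = 0.516) was -0.18 without cKO replicate 1.

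Dsp was uneven among the E16.5 libraries of each genotype. It had 7.47, 5.85 and 1.18 CPM in WT and 0.841, 0.792 and 3.45 CPM in cKO (log2 change -1.5, SE 0.86, edgeR adjusted p = 0.358). The 3 libraries highest in Dsp, WT replicates 1 and 2 and cKO replicate 3, were the 3 highest in choroid plexus markers, and the other 3 were not in the same order. They were also the 3 highest in C1ql3 and in Calb1. The part of choroid plexus cells in these levels was not tested. C1ql3 had 4.26, 4.26 and 2.15 CPM in WT and 1.79, 1.41 and 4.15 CPM in cKO, and Plk5 had 2.16, 3.49 and 2.51 CPM in WT and 1.23, 1.53 and 2.3 CPM in cKO. Both overlapped between genotypes (log2 changes -0.53 and -0.69, edgeR adjusted p = 0.552 and 0.292). C1ql2 was near the limit of detection, at 16, 13 and 11 counts in WT against 15, 15 and 24 in cKO (log2 change 0.48, 95% interval -0.29 to 1.24, edgeR adjusted p = 0.417). Tdo2, with 3 to 10 counts per library, fell under the filter and was not tested.

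**Figure D2:**
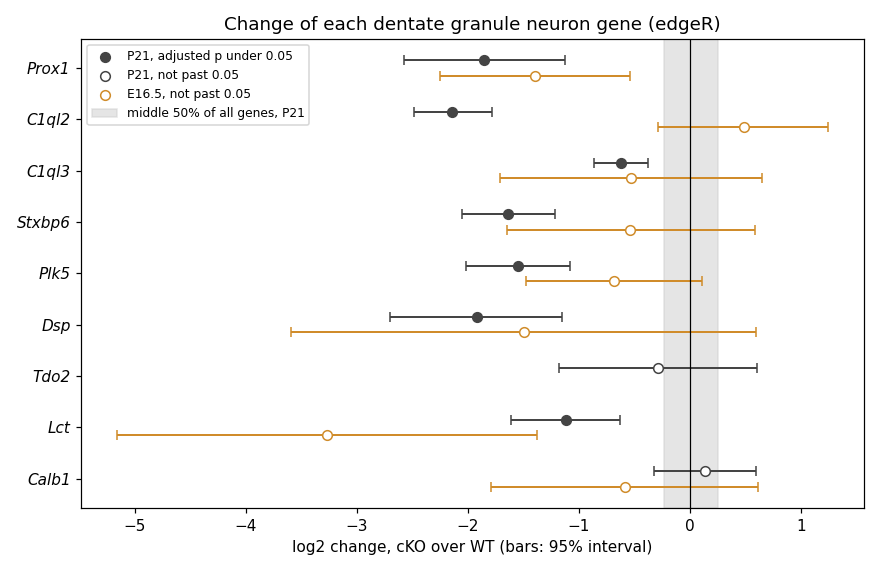
Log2 change of cKO over WT for each gene (horizontal axis) at P21 (dark) and E16.5 (orange), with 95% intervals from edgeR and filled points where the adjusted p is under 0.05; the grey band holds the middle 50% of all genes at P21. The 7 filled points are all dark, from -2.14 (C1ql2) to -0.62 (C1ql3).

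The cKO effect differed between the ages for C1ql2. In 1 fit of the 10 libraries its log2 change was -2.16 at P21 and 0.50 at E16.5, a difference of -2.66 (SE 0.31, edgeR adjusted p = 0.019, 18979 genes tested, of which 0.738% were lower and 0.427% higher). It was 1 of 9 genes past the threshold. The E16.5 side rests on 11 to 24 counts per library, and the call was lost without P21 WT replicate 1, P21 WT replicate 2, P21 cKO replicate 2 or E16.5 WT replicate 2 (edgeR adjusted p between 0.0535 and 0.093), and also with the replicate block (-2.65, edgeR adjusted p = 0.228), while the difference without any 1 library stayed between -2.82 and -2.47. For Lct the difference ran the other way, 2.10 (SE 0.76, 95% interval 0.37 to 3.82, edgeR adjusted p = 0.184). Prox1 had a difference of -0.50 (95% interval -1.71 to 0.71, edgeR adjusted p = 0.634). For Stxbp6 and Plk5 it was -1.14 and -0.91 (edgeR adjusted p = 0.35 and 0.275), and without E16.5 cKO replicate 1 that of Stxbp6 was -1.54 (edgeR adjusted p = 0.0215).

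All 9 genes were higher at P21 than at E16.5 in WT, with no overlap between the ages. The share of all genes that did so was not computed, so this count has no background beside it. The CPM were scaled by TMM for each age alone, so the ratios compare levels that were not scaled together. The ratio of the WT means was 58.1 for Lct, 37.3 for C1ql2, 23.1 for C1ql3, 15.8 for Dsp, 14.7 for Tdo2, 7.67 for Calb1, 4.41 for Plk5, 3.37 for Stxbp6 and 2.23 for Prox1. In cKO the ratio was 287 for Lct, on 1, 0 and 4 counts at E16.5, 21.8 for C1ql3, 13.3 for Tdo2, 12.7 for Calb1, 11.9 for Dsp, 6.08 for C1ql2, 2.43 for Plk5, 1.62 for Prox1 and 1.57 for Stxbp6. It was above the WT ratio for Lct and Calb1 and below it for the other 7. The ages were counted in separate tables, and age and any difference in handling between the ages cannot be told apart.

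Other genes of the granule lineage were read beside these 9. Of 10 further genes enriched in granule neurons, 6 were lower and 0 higher at P21, with a median log2 change of -0.75 against 0.01 for all genes. Synpr, a vesicle protein of mossy fibre terminals, had 103.2 ± 2.11 CPM in WT and 48.8 ± 3.07 CPM in cKO (SD, both n = 2), and fell by 1.08 on the log2 scale (edgeR adjusted p = 0.00293). Trpc6, a cation channel, fell by 1.28 on the log2 scale (edgeR adjusted p = 0.0117), and Bcl11b, a transcription factor also known as Ctip2, by 0.76 (edgeR adjusted p = 0.0162). Lrrtm4, Il1r1 and Rfx3 also fell, while Neurod1, Dock10, Npnt and Akap7 did not pass, with log2 changes of -0.38, -0.96, -0.44 and -0.31. The fit of all 10 libraries called 1 of the 10, as did the fit without WT replicate 2. Of 8 tested genes of the immature lineage, Sox11, Emx2 and Igfbpl1 fell by 0.99, 1.35 and 1.5 (edgeR adjusted p = 0.00704, 0.0213 and 0.0423) and 0 rose. At E16.5, 0 of the 19 genes tested in both lists passed edgeR's test, and the closest were Il1r1 (log2 change -1.23, edgeR adjusted p = 0.243) and Eomes (0.82, 0.11). DESeq2 called 0 of the first list and 4 of the second at E16.5, of which 2 were lower and 2 higher. Of all its genes 4.50% were lower, and the share that was higher is not given here.

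Genes that work with the 9 were read from 6 further lists. Of 7 tested relatives and receptors of the C1q-like proteins, which include the adhesion receptor Adgrb3 and the kainate receptor subunits, 0 passed at P21, and Grik4 came closest (log2 change 0.36, edgeR adjusted p = 0.117). Of 8 SNARE genes that work with Stxbp6, 0 passed, and Stx4a came closest (-0.26, 0.224). Of 7 desmosome genes, Pkp4, a plakophilin of cell contacts, fell by 0.46 (0.0382), a call lost without either WT library. Of the other 4 polo-like kinases, 0 passed, and Plk2 came closest (0.34, 0.216). Of 5 tested kynurenine pathway genes, Ido2, which catalyses the same step as Tdo2, had 2.21 ± 0.211 CPM in WT and 5.04 ± 0.103 CPM in cKO (SD, both n = 2), and rose by 1.19 (0.0317). That call was lost without either WT library and by DESeq2. Of 6 tested EF-hand genes other than Calb1, Hpcal1 fell by 0.68 (0.0253), also lost without either WT library. The values in brackets are edgeR adjusted p-values over all genes. At E16.5 the same 6 lists held 1 gene past the threshold, Hpca, a hippocampal calcium sensor, which fell by 0.62 (0.0376) and did not pass when any 1 of the 6 libraries was left out. DESeq2 called Hpca, Hpcal1, Grik4, Stxbp5 and the desmosome gene Jup lower at E16.5, with 4.50% of its genes lower. It also called Dsc3, another desmosome gene, at 153 counts over the WT and 7 over the cKO libraries. Dsc3 passed the filter on low counts through WT alone, which fixed its direction, so it is not counted here.

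Markers of other cells changed with genotype at P21 too. Of 7 pan-neuronal genes 0 passed (median log2 change -0.21, summed level 5620 and 6020 CPM in WT and 5350 and 5720 CPM in cKO). DESeq2 called 3 of them lower, with 5.45% of all its genes lower. Of 7 CA2 and CA3 markers 3 rose, Map3k15, Bok and Amigo2 (log2 changes 1.72, 0.77 and 0.73), with sums of 227 and 256 CPM in WT and 293 and 303 CPM in cKO. Of 7 CA1 markers Wfs1 rose by 1.12 and Ndst4 fell by 1.23. Of 8 striatal markers Drd1 and Ppp1r1b rose, and sums were 145 and 158 CPM in WT and 210 and 289 CPM in cKO. Isl1 was also called higher, at 2 counts over the WT and 34 over the cKO libraries. It passed the filter on low counts through cKO alone, which fixed its direction, so it is not counted here. The refit counts below were taken over all 8. Of 8 interneuron and 6 choroid plexus markers 0 passed, and of 6 thalamic markers Lhx9 rose by 1.01. All 6 oligodendrocyte markers (Mog, Cnp and Mag most clearly) and 4 of 6 microglial markers (among them P2ry12, Tmem119 and Cx3cr1) fell, as did Aqp4 among 6 astrocyte markers. These counts moved with single libraries: without cKO replicate 1 edgeR called 6 striatal and 3 CA1 markers higher and 3 pan-neuronal genes lower, without cKO replicate 2 it called 4 choroid plexus markers higher, and without WT replicate 2 it called 3 oligodendrocyte markers lower and 1 CA2 or CA3 and 0 thalamic markers higher. No marker in these lists was at 0 counts. The part of cell composition in the falls of the 9 genes was not tested.

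**Figure D3:**
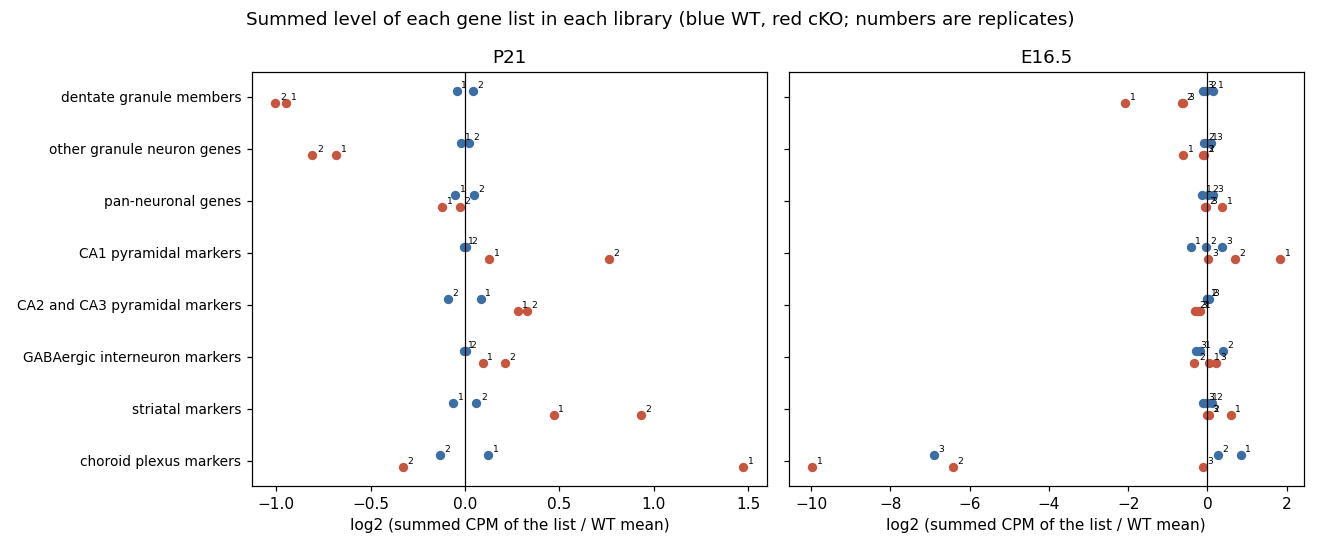
Log2 of the summed CPM of each gene list over its WT mean (horizontal axis) in each library at P21 (left) and E16.5 (right), WT in blue and cKO in red, with replicate numbers. At P21 both granule neuron lists are lower in both cKO libraries while the pan-neuronal sum is near WT, and at E16.5 the choroid plexus sum spreads over both genotypes.

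The histone marks at these genes were read from peaks within 1 kb of a RefSeq start, or within 1 kb of either gene end for Calb1. Each rests on 1 library per genotype and has no replicate check. H3K4me3 was found at 7 of the 9 genes in WT and in cKO (82.3% and 84.0% of 15941 genes), and at neither Tdo2 nor Lct. H3K27ac was found at Prox1, C1ql3 and Stxbp6 in WT (46.7% of genes) and at these and Plk5 and Dsp in cKO (67.5%). Thus 2 of 9 had it in cKO only, near the 21.7% of all genes. The H3K27ac list held 24065 peaks in cKO against 13006 in WT. With as many top peaks as the shorter list, 0 of the 9 had H3K27ac in cKO only (13.2% of genes). H3K27me3 was found at 1 gene, Dsp, in WT (2.97%) and at 6 in cKO (14.4%): Prox1, C1ql2, C1ql3, Stxbp6, Plk5 and Dsp. Of the 9, 5 thus had an H3K27me3 peak in cKO only, against 11.4% of all genes. The cKO list was longer throughout, with 15659 H3K27me3 peaks over 13036 kb against 4124 over 2860 kb in WT, and the file headers give 17399169 tags for the cKO and 18009991 for the WT library. When the cKO list was restricted to its top 4124 peaks by q-value, 5 of the 9 genes kept a peak (7.46% of genes) and 4 had one in cKO only (4.62%), Stxbp6 being the gene lost.

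The H3K27me3 peaks in cKO covered the starts of 5 of the 6 genes and flanked that of C1ql3. At Prox1 a peak of 4750 bp (chromosome 1, 190169829 to 190174578) covered the first start, and one of 1156 bp (190168575 to 190169730) covered the other; the gene body and its 1 kb flanks held 14 peaks over 9445 bp, and in WT the nearest H3K27me3 peak was 1014141 bp away. At C1ql2 a single peak of 3277 bp (chromosome 1, 120340103 to 120343379) ran over the whole annotated gene, with an enrichment of 11.09 in the authors' list, the highest at a start among the 6 genes. At Dsp the peak in cKO was 2789 bp long (chromosome 13, 38150488 to 38153276), and in WT there were peaks of 486 and 590 bp within the same stretch. Plk5 had a peak of 1577 bp, Stxbp6 one of 1161 bp with the lowest enrichment of the 6, 5.19, and C1ql3 had peaks of 1113 and 250 bp on either side of its start. Tdo2, Lct and Calb1 had none, and in cKO the nearest lay 900037, 262501 and 732151 bp away. Among the 8 genes with a listed start, these 6 are those with 12 or more CG dinucleotides upstream of the first start. That cut was set after the split was seen, and the same 6 had H3K4me3 in both genotypes. The share of all genes with as many CG dinucleotides that carry H3K27me3 was not computed.

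RNA and H3K27me3 divided the 9 genes alike except at Lct. Of the 7 genes lower at P21, 6 had the mark in cKO and Lct did not, and of the 2 not called, neither had it. Across all genes with coordinates, a peak in cKO was found at 25.9% of the 649 lower genes, 29.8% of the 453 higher genes and 13.4% of the 14839 genes not called. Among genes with H3K4me3 in WT the share was 14.6%. The mark was not particular to the 9 genes. In cKO it was at 6 of 8 genes of the immature lineage, 5 of 6 EF-hand genes, 5 of 7 desmosome genes, 6 of 8 striatal, 5 of 6 thalamic and 7 of 8 interneuron markers. Of these, 4, 5, 4, 3, 1 and 2 had it in cKO only. It was at 3 of the 10 further granule neuron genes, Bcl11b, Neurod1 and Trpc6, at 4 of 7 pan-neuronal genes and at 3 of 7 CA2 and CA3 markers, all in cKO only. Other lists held 4 of 7 (CA1), 3 of 7 (C1q-like partners) and 2 of 6 (choroid plexus). It was rarer at SNARE genes (1 of 8), polo-like kinases (0 of 4) and kynurenine genes (1 of 5). Oligodendrocyte, astrocyte and microglial markers had it at 1, 1 and 2 of 6, though 6 oligodendrocyte and 4 microglial markers were called lower at P21.

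H3K4me3 peaks at several of these starts were shorter in cKO. A peak that reached within 1 kb of a start counted with its full length. Separate peaks farther off did not count, so a stretch called as several peaks in 1 genotype counts in part. The length covered by peaks at the start in cKO, as a share of that in WT, had a median of 111% over the 13050 genes with a peak in both. C1ql2 stood at 9.24%, from 1927 to 178 bp, and 0 of the 13050 genes had a lower share. Dsp stood at 30.3%, from 1847 to 560 bp, with 15 genes lower. Prox1 stood at 61.8% (3584 and 2216 bp), Calb1 at 70.6% (1182 and 835 bp), Plk5 at 84.5% (975 and 824 bp), C1ql3 at 90.3% (2625 and 2370 bp) and Stxbp6 at 132% (1669 and 2207 bp). The share of genes below them was 1.13%, 2.15%, 6.56%, 10.9% and 81.7%. The mean enrichments of these peaks in the authors' lists were 7.85 in WT and 3.27 in cKO for C1ql2, 10.65 and 6.71 for Dsp, 9.44 and 5.96 for Calb1 and 10.84 and 12.9 for Stxbp6. At Prox1 the H3K27ac peaks near the starts numbered 3 over 1228 bp in WT and 2 over 447 bp in cKO, where they lay at the inner start only. Lct had an H3K4me3 peak of 323 bp in WT, 9328 bp inside the gene, and none in cKO. Over the gene body with 1 kb on each side, H3K4me3 peaks covered 2111 bp in WT and 472 bp in cKO for C1ql2. For Dsp they covered 1847 and 737 bp. These wider lengths were not ranked among all genes. Lengths also depend on how much was called in each list.

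**Figure D4:**
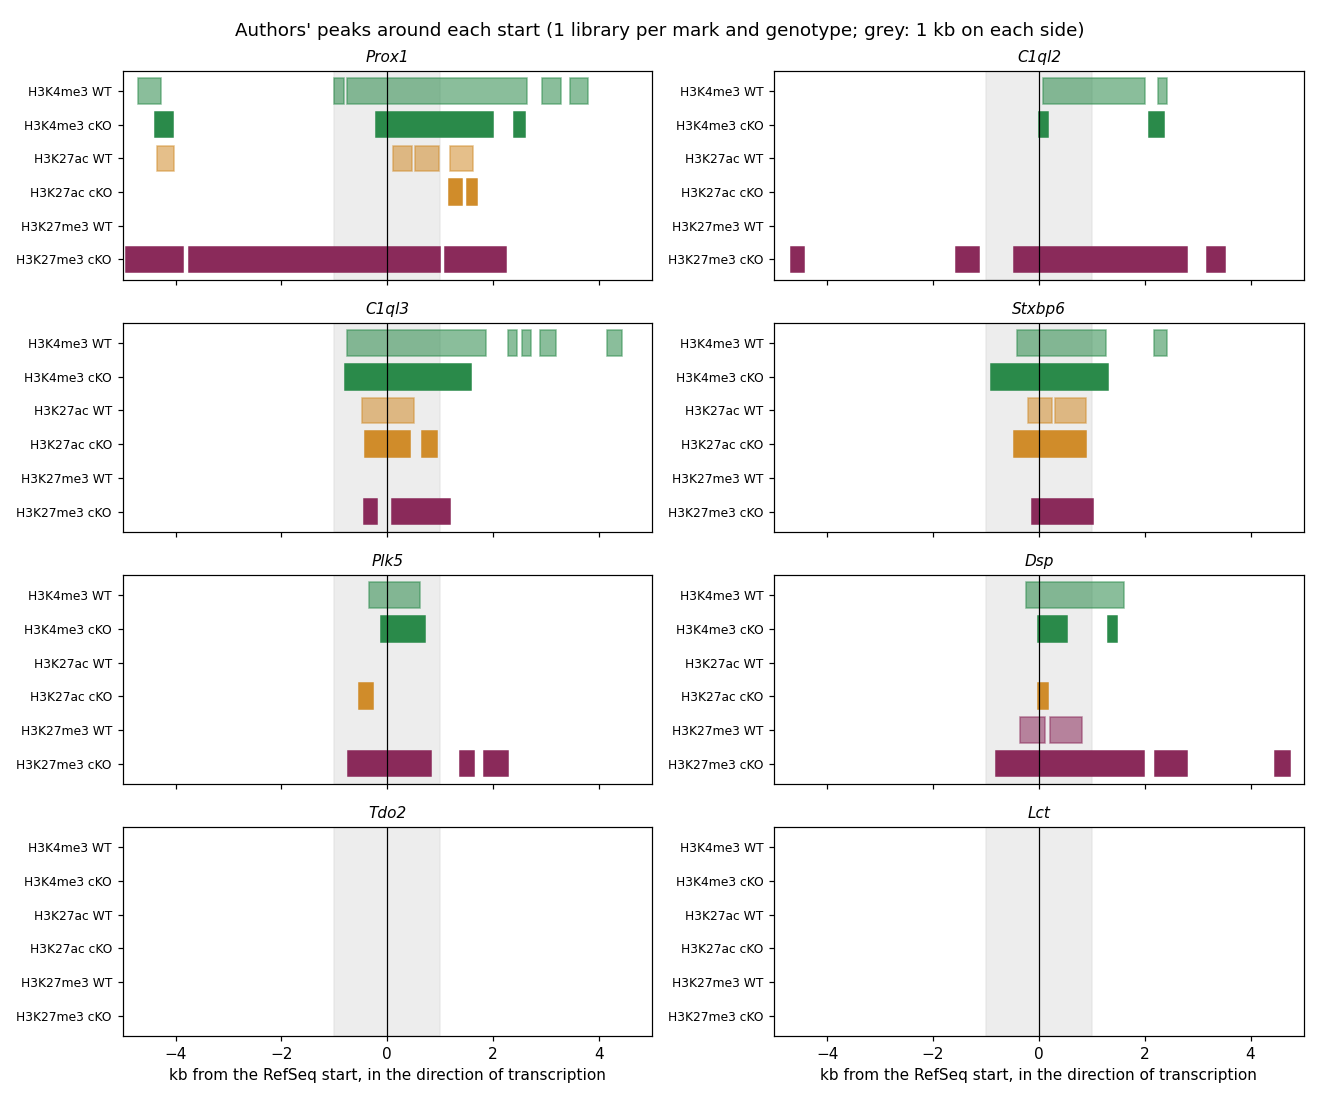
The authors' peaks of each mark and genotype (bars, pale WT and dark cKO) within 5 kb of the first RefSeq start of 8 genes (horizontal axis, kb in the direction of transcription; the grey band is 1 kb on each side). Dark H3K27me3 bars lie at the starts of 6 genes and pale ones only at Dsp, and the Tdo2 and Lct panels are empty. The H3K4me3 bar nearest the C1ql2 start is 178 bp long in cKO and 1927 bp in WT.

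Across the 10 RNA libraries, the genes of the list closest to Prox1 in log2 CPM were Stxbp6 (Pearson r = 0.93), Plk5 (0.84) and Dsp (0.75), and the others had r between 0.58 and 0.71. Among 12229 genes outside the list with a mean of at least 5 CPM, those most like Prox1 were Glce (0.976), Dpf3 (0.971), Flrt1 (0.965), Nipa1 (0.956) and Lcat (0.952). Dpf3, a subunit of the BAF complex, went from 12.4 CPM in WT to 4.60 in cKO at P21 (edgeR adjusted p = 0.0197) and from 5.26 to 2.15 at E16.5 (0.144). Lcat, which esterifies cholesterol in lipoproteins, went from 28.2 to 3.77 CPM at P21 (0.000596) and from 4.68 to 1.59 at E16.5 (0.138). Glce, Flrt1 and Nipa1 were not called at either age. These correlations describe 10 libraries that share age and genotype groups, and carry no test.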

How the data were processed

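For each age the authors deposited a gene table of estimated counts (expected counts), made with Salmon 1.0.0 on GRCm38 per the submitters' processing notes. A further deposited table for each age holds log2 fold changes, p-values and baseMean, a score of mean level; the notes name DESeq2 1.26.0. The sources used here give neither the summing of transcripts to genes nor the use of strand. Per the file headers, MACS 2.2.7.1 called peaks on single libraries against input of the same genotype with q-values up to 0.01, while the notes name MACS2 2.2.5, after Bowtie2 2.3.5.1. The deposited peak lists give a pileup signal, a fold enrichment ratio over input, and −log10 of the p-value and of the q-value.

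Counts were rounded, filtered with filterByExpr, scaled by TMM and tested for each age alone with edgeR 4.0.16 in R 4.3.3 (robust quasi-likelihood F test, Benjamini-Hochberg adjustment over all genes tested, threshold 0.05). Standard errors were obtained from the F statistic and are approximate. Ages were compared by a contrast in 1 fit of the 10 libraries. DESeq2 1.42.0, other scalings, no filter, a replicate block, sex and leaving out each library were the alternatives. Log2 CPM used a prior count of 2. CPM levels are not compared between genes, since no exon lengths were used. The replicates were biological per the series design for RNA, and none exist for ChIP-seq.

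Gene coordinates and starts are from RefSeq (GRCm38.p6): 15941 of 17407 tested genes (91.6%) had coordinates and 12307 a listed start. Genes without one, Calb1 among them, were read at both ends. Of the 9 genes, 8 matched the promoter table.

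All 9 genes were named, with up to 3 called genes of lowest adjusted p per other list or the closest 1, and the 5 genes most like Prox1. Genes named beyond that, and the peaks described, were chosen after their values were seen. The members and the 18 other lists were chosen with earlier results of these data known. The scripts were tested on simulated data. The labels do not say whether replicate numbers pair the libraries. Deviations of same-numbered libraries correlated at 0.02 at P21 and between -0.49 and -0.02 at E16.5. With so few libraries per genotype, these correlations cannot decide whether the numbers pair litters or batches. Xist was low in both replicates 1 at P21 and in both replicates 3 at E16.5 (7 and 10 counts), so same-numbered libraries shared sex.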

Additional observations from a re-analysis of the deposited data

Results flagged for a closer look

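The cKO effect on C1ql2 differed between the ages: the log2 change at P21 less that at E16.5 was -2.66 (SE 0.31, edgeR adjusted p = 0.019). Both cKO libraries were below both WT libraries at P21, and at E16.5 the groups overlapped at 11 to 24 counts per library. The call was lost with the replicate block (-2.65, edgeR adjusted p = 0.228) and without P21 WT replicate 1, P21 WT replicate 2, P21 cKO replicate 2 or E16.5 WT replicate 2 (edgeR adjusted p between 0.0535 and 0.093).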

How the results depend on the processing

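Of the values for single genes recomputed under an alternative, 72 of 90 at P21, 103 of 104 at E16.5 and 124 of 135 for the difference between ages kept their direction and their side of the threshold. The number of the 9 genes lower at P21 was 2 in the fit of all 10 libraries (C1ql2 and Plk5) and 3 to 8 when 1 library was left out, and the number higher was 0 to 1. Without a filter on low counts Prox1 and Dsp no longer passed (edgeR adjusted p = 0.139 and 0.145), and 5 remained. At E16.5 the number lower was 1 by DESeq2. For the difference between ages the number lower was 0 with the replicate block, and 0 to 2 when 1 library was left out. The block, which at P21 is also a block by sex, left 7 genes lower at P21 and 0 at E16.5. Directions reversed, none past the threshold, at P21 for Tdo2 (0.18) and Calb1 (-0.19) without cKO replicate 2, where the ranges over the libraries left out were -1.02 to 0.18 and -0.19 to 0.40. For the difference between ages they reversed for Tdo2 (0.28 without P21 cKO replicate 2, 0.19 without E16.5 WT replicate 2), C1ql3 (0.11 without E16.5 WT replicate 3, 0.48 without E16.5 cKO replicate 3) and Dsp (0.59 without E16.5 cKO replicate 3), with ranges of -0.90 to 0.28, -0.42 to 0.48 and -0.95 to 0.59. With peaks of a −log10 q of at least 10, H3K27ac was at 1 of the 9 genes in WT and 0 in cKO (1 in WT only, 0 in cKO only), and 2 had H3K4me3 in WT only, C1ql2 and Calb1. With as many top peaks as the shorter list, H3K27ac was at 3 in cKO and 0 in cKO only, and 1 gene, C1ql2, had H3K4me3 in WT only. Over the gene body 1 gene, Lct, had H3K4me3 in WT only. Apart from the smaller peak sets and libraries left out, the cause of these changes was not tested. At E16.5 C1ql2, Lct and Tdo2 had fewer than 25 counts in each library, and at P21 each genotype had 2 libraries.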
